A study of Oryza sativa with 12 samples.

Results

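A set of 291 rice genes, out of 57174 listed, was defined by being well expressed in spikelets of the cultivar BR-IRGA 409 at the control temperature and at least 2 times higher there after heat. The genes were chosen by 3 criteria on CPM, a gene's count divided by the sum of gene counts of its library and multiplied by 1000000. The mean over the BR-IRGA 409 control libraries had to be 20 CPM or more, the treated mean at least 2 times the control mean, and the lowest treated value above the highest control value. The values of BR-IRGA 409 therefore describe how the set was made and test nothing, whereas the libraries of the second cultivar, IRGA 428, took no part in the choice.

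The study profiled messenger RNA in Oryza sativa spikelets from the middle of the panicle, collected at anthesis after 3 days of treatment. Its 4 groups were IRGA 428, which the labels call heat sensitive, at 29 °C (control) and at 38 °C (treated), and BR-IRGA 409, which they call heat tolerant, at the same temperatures, each for 7 h of the day. Each group had 3 libraries and each library pooled 2 plants. A spikelet holds several organs, and in such bulk samples fewer cells of a type and less RNA per cell cannot be told apart.

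Anthesis, when rice flowers open and shed pollen, is the stage at which heat most easily reduces seed set, because pollen release and its germination on the stigma are disturbed. Plant cells under heat activate heat shock factors, which switch on genes for chaperones that keep other proteins folded. The files list genes by ID only. A search of those IDs in the available table of rice gene symbols gave 0 matches, so no role is given to any gene below and the tissue could not be checked against marker genes. The gene lengths are also not in the files, so CPM is compared between libraries for a gene and not as molecules between genes.

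Library size ran from 7.08 to 26.99 M (M stands for 1000000 gene counts) in 9 libraries and from 39.0 to 75.4 M in the BR-IRGA 409 treated libraries. At these sizes, each of the 291 genes had at least 86 counts in every BR-IRGA 409 library. Libraries of IRGA 428 stood apart within their own groups, and control 1 was the shallowest of that cultivar (8.88 M). Control 3 and treated 1 were its highest libraries for 16.8% of the 9468 other genes with a BR-IRGA 409 control mean of 20 CPM or more. Their deviations from their group means had r = 0.341 over the genes tested, against 0.567 for control 2 and treated 2. Many of the counts that rest on control 1, control 3 or treated 1 of IRGA 428 are given with and without them. The ratios of means over the set and the correlations are given with all libraries only.

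In BR-IRGA 409 the 291 genes together took 1.75%, 2.51% and 1.99% of the gene counts of control 1, 2 and 3, and 7.62%, 5.504% and 6.60% of those of treated 1, 2 and 3. The mean share was 2.08% ± 0.388 (SD, n = 3) at 29 °C and 6.57% ± 1.06 at 38 °C, a ratio of 3.16. Within the treated group the order did not follow depth, since treated 1, the shallowest of the 3, had the highest share and treated 2 the lowest. The same order held gene by gene: treated 1 was the highest of the 3 for 240 genes and treated 2 the lowest for 260.

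**Figure D1:**
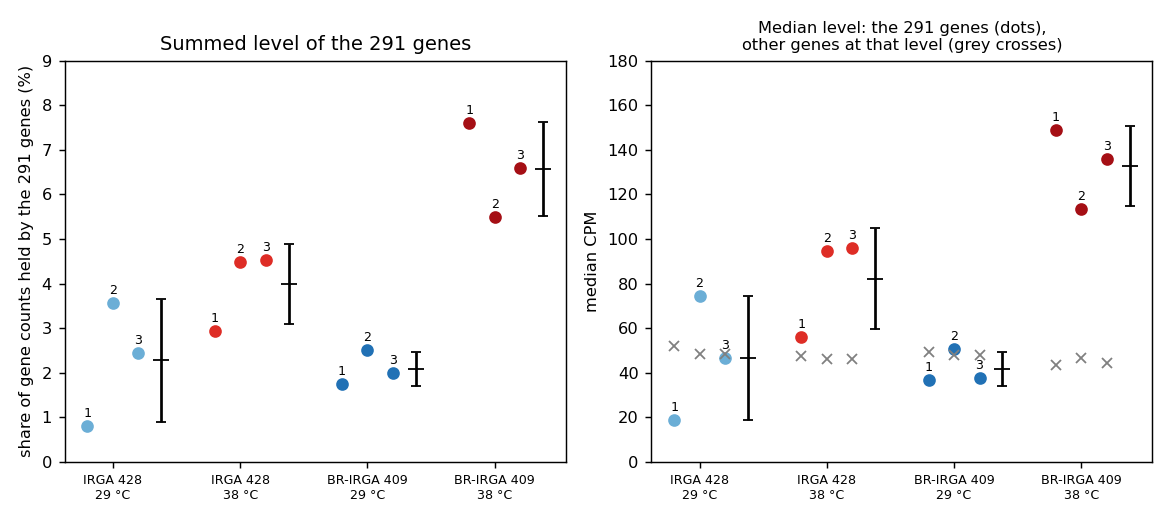
Share of all gene counts held by the 291 genes (left, %) and their median level (right, CPM) in each of the 12 libraries, with replicate numbers beside the points and the mean ± SD (n = 3) in black; grey crosses on the right are the median of the 9468 other genes with a BR-IRGA 409 control mean of 20 CPM or more. The BR-IRGA 409 treated libraries lie highest, and the IRGA 428 control libraries spread from 0.807% to 3.57%, while the crosses stay between 43.6 and 51.97 CPM.

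In BR-IRGA 409 most of the set was moderately abundant at 29 °C, and the lowest mean over the treated libraries was 44.2 CPM. The control means had a median of 41.1 CPM, with 167 genes between 20 and 50 CPM, 80 between 50 and 100 CPM, and 44 at 100 CPM or more. The treated means had a median of 134 CPM. At 38 °C, 192 genes had a mean of 100 CPM or more, 25 of 500 CPM or more, and 5 of 1000 CPM or more. The 10 highest genes of a library held 20.2% to 21.6% of the set's counts in the treated libraries and 22.9% to 27.4% in the controls, so the summed level was not set by a few transcripts.

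The ratio of treated to control mean in BR-IRGA 409 had a median of 2.91 and reached 11.8. It was under 3 for 153 genes, 3 to 5 for 101 genes and 5 or more for 37 genes. The set made up 2.98% of the 9759 genes with a control mean of 20 CPM or more, and 276 genes at that level fell to 1/2 of the control mean or less without overlap. Near the limits of the rule, a gene with a control mean of 20.03 CPM was inside and one with 19.6 CPM outside, and a ratio of 2.004 was inside and one of 1.9996 outside. The criterion of no overlap removed 2 genes that met the others: the closest gene inside had a lowest treated value 1.02 times the highest control value, and the closest outside 0.922 times.

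MH05g0369800 had the highest treated mean of the set, and it ranked 68th in mean CPM of all genes at 29 °C and 5th at 38 °C in BR-IRGA 409. Its BR-IRGA 409 controls stood at 673, 1217 and 1135 CPM and the treated libraries at 4764, 2303 and 3647 CPM. In IRGA 428 its level was 61.8, 1362 and 184 CPM in the controls and 306, 1563 and 1457 CPM in the treated libraries. The IRGA 428 groups overlapped, control 2 lying above treated 1, and control 1 was below every other library. The edgeR log2 fold change was 1.92 (SE 0.95, adjusted p = 0.192) in BR-IRGA 409, where the gene was not called, and 1.12 (SE 0.93, adjusted p = 0.595) in IRGA 428.

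MH11g0124400 had the largest ratio in BR-IRGA 409, 11.8, with 27.5, 24.0 and 11.0 CPM in the controls against 315, 177 and 245 CPM in the treated libraries. In IRGA 428 it stood at 4.48, 96.3 and 34.6 CPM in the controls and at 47.7, 173 and 205 CPM in the treated libraries. Here too control 1 was far below the rest and control 2 above treated 1. Its log2 fold change was 3.66 (SE 0.90, edgeR adjusted p = 0.0327) in BR-IRGA 409, whose libraries chose the set. Nothing is read from that p-value. In IRGA 428 the log2 fold change was 1.71 (SE 0.83, edgeR adjusted p = 0.428), the highest of the set in that cultivar.

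**Figure D2:**
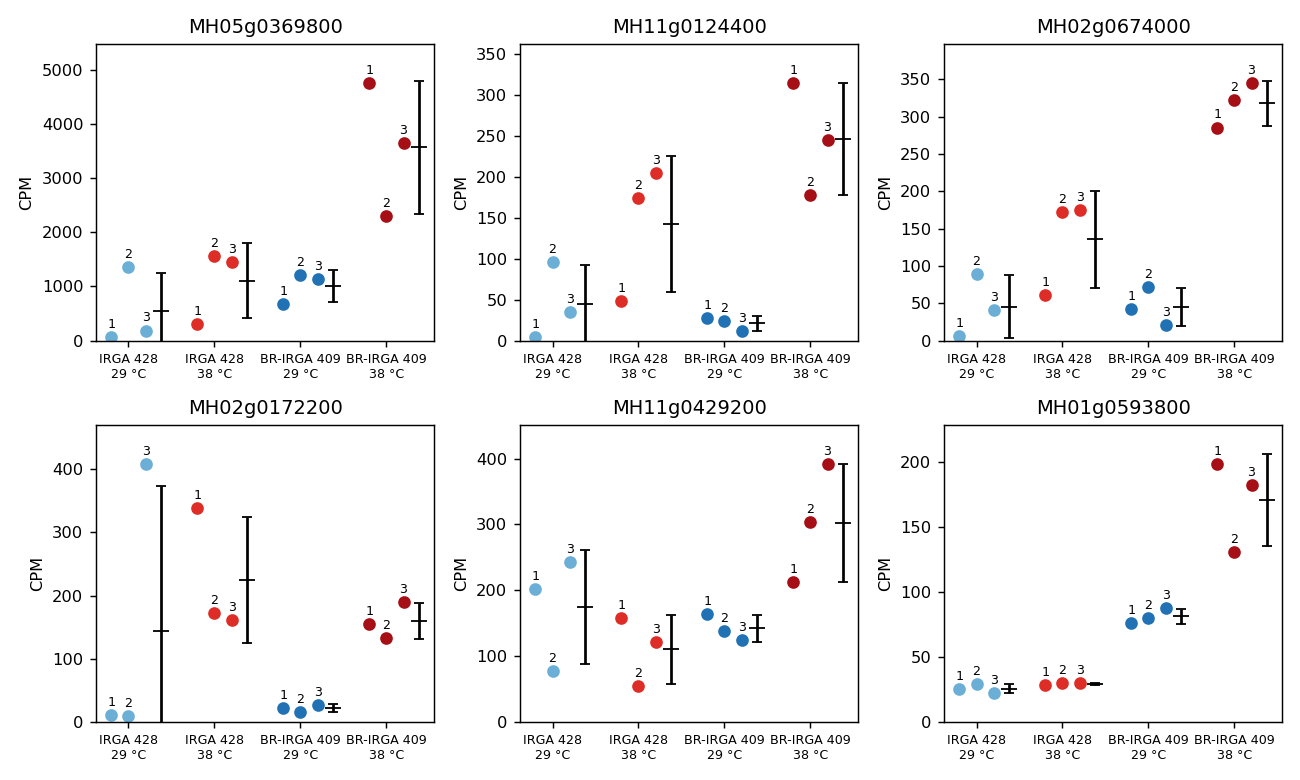
CPM of 6 genes of the set in each library, with replicate numbers beside the points and the mean ± SD (n = 3) in black; axes start at 0, and the part of a bar below 0 is not drawn. The top row shows genes with IRGA 428 control 1 lowest; MH02g0172200 is highest in IRGA 428 control 3 and treated 1, MH11g0429200 has a lower mean at 38 °C than at 29 °C in IRGA 428, and MH01g0593800 is lower in IRGA 428 than in BR-IRGA 409 in every library.

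Across all 22321 genes that passed the filter on low counts, among them all 291, the quasi-likelihood test of edgeR (Benjamini-Hochberg adjusted p below 0.05) called 2646 genes (11.9%) for heat in BR-IRGA 409. Higher at 38 °C were 1501 genes (6.72%). Of the 291 genes, 165 (56.7%) were called, all higher. Since the set was chosen on these libraries, nothing is read from that share. In a fit of the BR-IRGA 409 libraries alone 290 were called, where 12.7% of all genes were called higher. In the fit of all 12 libraries the count of 165 depended on single libraries, and so did that over all genes. It was 3, 9 and 0 without BR-IRGA 409 control 1, 2 and 3, where 0.114%, 0.339% and 0.0396% of all genes were called higher. Without treated 1, 2 and 3 it was 9, 86 and 6, against 0.207%, 4.59% and 0.145%. It also moved when IRGA 428 libraries were left out, which share the estimate of the spread, with 277 calls without control 1, 249 without control 2, 74 without treated 2 and 70 without treated 3, against 10.1%, 8.37%, 3.43% and 3.3% of all genes.

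How the genes behaved in IRGA 428 was the comparison that the choice left free. They tended to be higher at 38 °C there as well, and 0 genes passed the test. Their median ratio was smaller than in BR-IRGA 409, which the choice of the set by its BR-IRGA 409 ratio favours. The ratio of means had a median of 1.73, with 25% of the genes below 1.48 and 25% above 2.02, and it was 2 or more for 79 genes. The edgeR log2 fold change was above 0 for 288 of 291 genes, with a median of 0.84, against a median of −0.0034 over all genes tested and −0.025 over the 9468 other genes at that level. In edgeR 0 of the 291 genes were called (smallest adjusted p = 0.401), as were 0 (0%) of all 22321. At an unadjusted p below 0.05, 43 of the 291 (14.8%) were higher and 0 lower, against 4.85% of all genes higher. That number moved with single libraries. It was 251 without control 2 and 105 without treated 1, against 8% and 8.46% of all genes, and 14 and 10 without treated 2 and 3, against 3.01% and 2.08%. It was 103 with DESeq2 and 116 with limma-voom, against 4.07% and 6.21%. With a replicate block it was 106, against 5.61%, and in a fit of the IRGA 428 libraries alone it was 16 of the 290 genes with counts, against 2.41%. DESeq2 and limma-voom also called 0 of them, with smallest adjusted p-values of 0.12 and 0.404. Of all genes DESeq2 called 13 of 35195 (0.0369%) and limma-voom 0 of 22321.

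**Figure D3:**
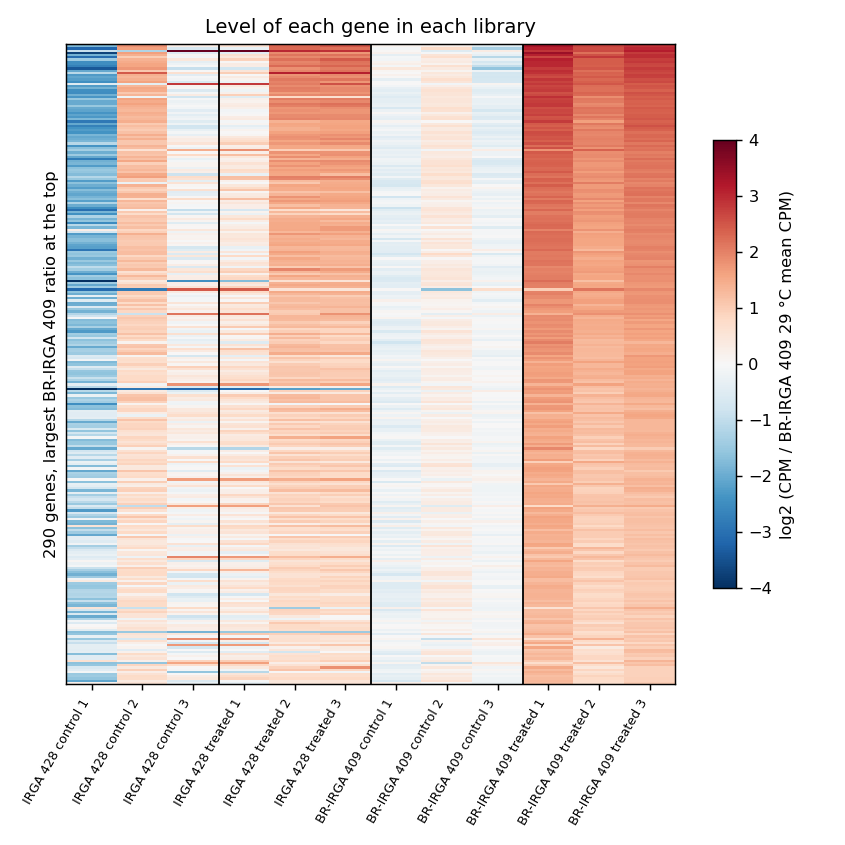
Level of 290 of the genes (rows, ordered by the BR-IRGA 409 ratio; the gene with 0 counts in IRGA 428 is left out) in the 12 libraries (columns), as log2 of CPM over the gene's BR-IRGA 409 mean at 29 °C; red is above and blue below that mean. IRGA 428 control 1 is blue for most rows and IRGA 428 control 2 red for most, although both were at 29 °C.

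The IRGA 428 libraries could be put in an order that most of the genes shared. The 291 genes took 0.807% of the gene counts in control 1, 2.44% in control 3, 2.95% in treated 1, 3.57% in control 2, 4.49% in treated 2 and 4.54% in treated 3. Control 1 was the lowest of the 6 libraries for 275 of the 290 genes with counts in this cultivar. For 217 genes control 1 was below control 3, control 3 below treated 1, and treated 1 below control 2; among the 9468 other genes at that level, 288 had this order. Treated 2 and treated 3 were both above all controls for 226 genes (77.7%), against 9.56% of the other genes, and their median ratio to each other was 1.0006.

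Among the IRGA 428 controls the set's share was lowest in control 1 and highest in control 2. The ratio between these single libraries exceeded the ratio of temperature means, an unlike measure over 3 libraries each with a median of 1.73. Control 3 was 3.17 times control 1 in the median gene. Control 2 was 5.00 times control 1 in the median gene, and at least 3 times for 205 of the 291 genes (70.4%). Among the other genes the median ratio was 0.937 and 145 (1.53%) were at least 3 times higher in control 2. The median coefficient of variation was 68.6% in the IRGA 428 controls, 29.2% in the IRGA 428 treated libraries, 24.0% in the BR-IRGA 409 controls and 17.3% in the BR-IRGA 409 treated libraries. For the other genes it was 15.3%, 10.2%, 9.37% and 9.32% in the same order, so the set varied more between replicates in every group.

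Measures of the libraries moved along with this order in part. Control 1 was also the shallowest IRGA 428 library (8.88 M) and treated 3 the deepest (26.99 M), but control 2, control 3 and treated 1 had 16.4, 15.8 and 16.5 M. Reads outside any gene made up 6.54% of all reads in control 1, 7.80% in control 2, 6.94% in control 3, 6.60% in treated 1, 7.76% in treated 2 and 8.80% in treated 3. Reads with several alignments made up 4.08% in control 1, 4.12% in treated 1, 4.30% in control 3, 4.38% in control 2, 4.62% in treated 2 and 4.90% in treated 3, nearly the order of the set's share. In BR-IRGA 409 they made up 3.70% to 3.82% in the controls and 4.998% to 5.34% in the treated libraries, without overlap. The part of these measures in the result was not tested. With all libraries thinned to the size of the smallest, the rule found 292 genes.

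Which libraries were kept decided how clear the IRGA 428 response looked. All treated libraries were above all controls for 32 of the 291 genes (11.0%) and below them for 0, against 4.05% of the genes tested for the first direction and 8.23% for the second. Without control 2, the first count was 252 (86.6%), against 11.1% of the genes tested, and 1 gene lay below. Without treated 1 the first count was 226, against 14.1%. Without control 1 it stayed at 32, against 5.85%, and without control 3 it was 52, against 13.3%. The median log2 fold change was 0.84 with all libraries, 0.44 without control 1 and 1.36 without control 2.

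The calls moved with another library. Without control 3 edgeR called 15 of the 291 genes (5.15%), all higher, where 3.4% of all genes tested were called higher. Without both control 3 and treated 1 it called 16 (5.498%), against 2.64%. Both shares were of the order of those over all genes, and 0 of the 291 were called without any 1 of the other libraries.

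The 32 genes without overlap in IRGA 428 had ratios of 1.28 to 2.53 there, with a median of 1.73. Their ratios in BR-IRGA 409 ran from 2.02 to 4.37, with a median of 2.37. The medians over the whole set were 1.73 and 2.91.

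The genes with a large ratio in BR-IRGA 409 were also those with a large ratio in IRGA 428, a description across genes, which share libraries and are not independent. Over 290 genes Pearson's r between the log2 ratios of the cultivars was 0.792, and Spearman's rho was 0.800. The log2 ratio in BR-IRGA 409 also went with that between control 2 and control 1 of IRGA 428, with r = 0.684 and rho = 0.721, although these libraries were all at 29 °C in the second quantity and none was shared. Among the 9448 other genes with counts the latter values were 0.377 and 0.292. The rule divided the genes by their BR-IRGA 409 ratio, so these values and those of the set are not directly comparable. The 37 genes with a ratio of 5 or more in BR-IRGA 409 had a median ratio of 2.37 between temperatures in IRGA 428, and of 11.8 between its controls 2 and 1. For the 153 genes with a ratio under 3 the medians were 1.497 and 3.06.

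**Figure D4:**
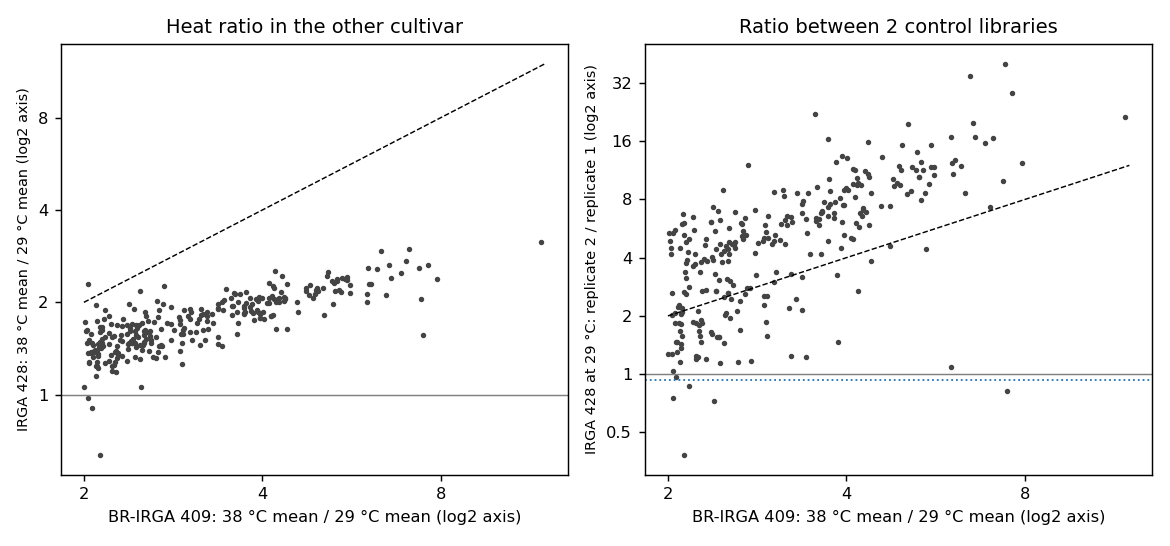
Each point is 1 of 290 genes, with the ratio of BR-IRGA 409 means (38 °C over 29 °C) on the horizontal axis and, on the vertical axis, the same ratio in IRGA 428 (left) or the ratio of IRGA 428 control 2 to control 1 (right), all on log2 axes. Dashed lines mark equal ratios, grey lines a ratio of 1 and the blue dotted line the median of the other genes, 0.937; on the left 289 points lie below the dashed line, and on the right the median is 5.00.

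The reverse reading was made by listing genes with a wide gap between the IRGA 428 controls. Of the genes with a BR-IRGA 409 control mean of 20 CPM or more, 350 had at least 3 times more CPM in control 2 than in control 1, and 205 of them belonged to the set. This was 58.6% of that list and 70.4% of the set. The same rule applied to IRGA 428 itself found 10 genes, of which 7 were in the set (70% of the 10 and 2.41% of the 291). Without IRGA 428 control 2 it found 193 genes, 144 of them in the set (74.6% and 49.5%), and without treated 1 it found 162, with 127 in the set (78.4% and 43.6%). Without control 3 it found 118 genes, of which 25 were in the set (21.2% and 8.59%), and without control 1 it found 1 gene, which was not in the set.

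Most genes followed the same course over the IRGA 428 libraries. The first axis of their centred log2 CPM held 89.6% of the variance over the 6 libraries, against 54.5% for the other genes. The Pearson's r of a gene with the median course of the set, which each gene helps to form, was 0.9 or more for 237 of 290 genes, with a median of 0.981. It was under 0.5 for 17 genes and under 0 for 1. The median course stood at −1.91, 0.52 and −0.31 in controls 1, 2 and 3, and at −0.02, 0.74 and 0.73 in treated 1, 2 and 3. Control 1 therefore weighs most in the first axis and in r, and neither was computed without it.

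Beside MH11g0124400, MH02g0674000 had the highest log2 fold change in IRGA 428, and it shows the common course. It had 5.41, 89.5 and 41.4 CPM in the IRGA 428 controls and 60.8, 172 and 175 CPM in the treated libraries. In BR-IRGA 409 its level was 42.5, 71.6 and 20.8 CPM in the controls and 285, 322 and 346 CPM in the treated libraries. The IRGA 428 groups overlapped by control 2 and treated 1, and the log2 fold change was 1.63 (SE 0.76, edgeR adjusted p = 0.426). In BR-IRGA 409, whose libraries chose the set, the log2 fold change was 2.91 (SE 0.80, edgeR adjusted p = 0.0424). Nothing is read from that p-value.

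At the other end, MH11g0429200 was the gene whose course ran against the set (r = −0.695). It had 202, 76.9 and 243 CPM in the IRGA 428 controls and 157, 53.6 and 121 CPM in the treated libraries, so that control 1 and control 3 lay above all treated libraries and control 2 did not. Its BR-IRGA 409 values were 164, 138 and 124 CPM at 29 °C and 213, 303 and 392 CPM at 38 °C. The log2 fold change was −0.58 (SE 0.45, edgeR adjusted p = 0.568) in IRGA 428 and 1.18 (SE 0.45, adjusted p = 0.104) in BR-IRGA 409. MH05g0062500 was the other gene with a negative value in IRGA 428, −0.06 (SE 0.30, adjusted p = 0.938). Its IRGA 428 controls had 30.2, 44.1 and 26.4 CPM and the treated libraries 28.6, 23.5 and 39.1 CPM, which overlap throughout.

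A minority took a different course, with control 3 and treated 1 as the highest IRGA 428 libraries. This held for 13 of the 291 genes (4.47%) and for 16.8% of the other genes at that level. MH02g0172200 was the most marked of those named, at 11.4 and 9.34 CPM in controls 1 and 2 but 409 CPM in control 3, and at 339, 173 and 161 CPM in the treated libraries. In BR-IRGA 409 it had 22.3, 14.8 and 27.1 CPM at 29 °C and 156, 133 and 190 CPM at 38 °C, without overlap. MH03g0161100 behaved alike, with 28.3, 30.7 and 282 CPM in the IRGA 428 controls, 284, 164 and 234 CPM in its treated libraries, 40.3, 36.7 and 43.0 CPM in the BR-IRGA 409 controls and 281, 226 and 214 CPM in the treated ones.

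The next question was whether the genes differed between the cultivars at 29 °C. This comparison uses the BR-IRGA 409 control libraries on which the set was chosen, so its values are a description. The sum over the set was 2.27% ± 1.39 (SD, n = 3) of the gene counts in IRGA 428 and 2.08% ± 0.388 in BR-IRGA 409. IRGA 428 lay on both sides of BR-IRGA 409: its control 1 was below all BR-IRGA 409 controls for 270 genes (92.8%), and its control 2 above all of them for 253 genes (86.9%). Among the other genes at that level these shares were 21.7% and 32.5%. The median log2 difference, BR-IRGA 409 over IRGA 428, was −0.15, and its sign was not stable, at 0.14 with limma-voom, −0.54 without IRGA 428 control 1 and 0.44 without IRGA 428 control 2.

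At 29 °C edgeR called 3 of the 291 genes (1.03%), all higher in BR-IRGA 409, where it called 1.9% of all genes tested higher. MH04g0107200 had 19.1, 23.5 and 30.7 CPM in the BR-IRGA 409 controls and was the 1 gene of the set without any count in the 6 IRGA 428 libraries. Its level at 29 °C was at least 335-fold higher in BR-IRGA 409, a bound computed with 3 counts over the IRGA 428 group that covers counting error only. MH04g0111900 had 67.5, 107 and 68.9 CPM in the BR-IRGA 409 controls and 0.901, 10.9 and 9.10 CPM in the IRGA 428 controls, a log2 difference of 3.54 (SE 0.61, edgeR adjusted p = 0.00666). The call was lost in an edgeR fit of the 29 °C libraries alone, with an adjusted p of 0.0761, and in the same fit with a replicate block, with an adjusted p of 0.0742. The third, MH01g0593800, named after its values were seen, had 76.3, 80.2 and 87.7 CPM against 25.1, 29.0 and 22.4 CPM, a log2 difference of 1.74 (SE 0.17, edgeR adjusted p = 8.53e-05).

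No gene of the set was called lower in BR-IRGA 409 at 29 °C by edgeR, where 3 had a negative difference at an unadjusted p below 0.05, or by DESeq2 or limma-voom. The lowest differences were those of MH02g0172200 (−2.75, SE 1.18, edgeR adjusted p = 0.352) and MH03g0161100 (−1.505, SE 0.75, adjusted p = 0.467). Both rested on IRGA 428 control 3, and without it the values were 1.16 and 0.54. Without IRGA 428 control 1, 9 genes were called lower in BR-IRGA 409 and 3 higher, against 2.16% and 1.5% of all genes.

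At 38 °C the set lay higher in BR-IRGA 409, which the choice of its treated libraries favours. The sum was 6.57% ± 1.06 of the gene counts there against 3.99% ± 0.905 (SD, n = 3) in IRGA 428, whose libraries had 2.95%, 4.49% and 4.54%. All BR-IRGA 409 treated libraries were above all IRGA 428 treated libraries for 221 genes (75.9%), against 13.2% of all genes tested, and below them for 1, against 20.3%. The median log2 difference was 0.75. All 3 IRGA 428 treated libraries lay below the lowest BR-IRGA 409 treated library, at 5.504%.

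At 38 °C edgeR called 16 of the 291 genes (5.498%), all higher in BR-IRGA 409, and 3.1% of all genes were called in that direction. For 15 of them the log2 difference ran from 0.51 to 3.89, with a median of 1.04. The 16th was MH04g0107200, with 72.3, 40.8 and 43.0 CPM in BR-IRGA 409 and no count in IRGA 428, where 3 counts over the group put it at least 1114-fold higher in BR-IRGA 409. MH04g0111900 had 279, 177 and 207 CPM against 9.50, 17.6 and 20.05 CPM, a log2 difference of 3.89 (SE 0.61, edgeR adjusted p = 0.00233). MH01g0593800 was also among them, at 199, 131 and 183 CPM against 28.3, 29.6 and 29.8 CPM, with a log2 difference of 2.63 (SE 0.17, adjusted p = 3.37e-06). The number was 47 without IRGA 428 control 1, against 3.95% of all genes. It was 5, 6 and 6 without IRGA 428 treated 1, 2 and 3, against 2.54%, 1.9% and 1.85%. Without BR-IRGA 409 treated 1, treated 3 and control 3 it was 7, 6 and 8, against 2.34%, 1.93% and 2.52%.

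The lowest differences at 38 °C belonged to MH02g0172200 (−0.41, SE 1.09, edgeR adjusted p = 0.883) and MH01g0242700 (−0.24, SE 0.52, adjusted p = 0.852), which were not called. MH01g0242700 had 112, 78.8 and 91.4 CPM in IRGA 428 and 68.7, 83.1 and 74.7 CPM in BR-IRGA 409 at 38 °C, so the groups overlapped. At 29 °C it had 23.5, 28.9 and 129 CPM in IRGA 428, with control 3 again the highest, and 34.3, 29.3 and 37.0 CPM in BR-IRGA 409.

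The difference between the heat responses, the interaction, contains the contrast that chose the set and therefore leans towards BR-IRGA 409. The ratio of means was larger in BR-IRGA 409 for 289 of the 290 genes with a ratio in both cultivars. Even so, edgeR called 0 of the 291 genes for the interaction (smallest adjusted p = 0.74), against 0.00448% of all genes. DESeq2 and limma-voom also called 0 of the 291, against 0.119% and 0% of all genes. At an unadjusted edgeR p below 0.05, 30 genes (10.3%) had a larger response in BR-IRGA 409, against 2.88% of all genes, and 0 a smaller one. That number was 221 without IRGA 428 control 1, against 6.18% of all genes, 18 without IRGA 428 control 2, against 2.67%, and 15 without IRGA 428 treated 1, against 2.27%. It was 18, 18 and 19 without BR-IRGA 409 control 1, control 3 and treated 1, against 2.13%, 1.7% and 2.15%, and 15 without both IRGA 428 control 3 and treated 1, against 3.09%. The lack of calls does not show equal responses. Without IRGA 428 control 1, 1 gene was called, against 0.00882% of all genes. It was MH07g0117600, with a log2 response larger by 1.45 in BR-IRGA 409 (SE 0.15, edgeR adjusted p = 0.0182).

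The highest interaction values were those of MH02g0172200 (2.35, SE 1.58, edgeR adjusted p = 0.938) and MH11g0124400 (1.95, SE 1.16, adjusted p = 0.932). The first rested on IRGA 428 control 3 and was −1.57 without it. The lowest were those of MH04g0622600 (−0.15, SE 0.59, edgeR adjusted p = 1) and MH10g0113000 (0.14, SE 0.65, adjusted p = 1). MH04g0622600 was the 1 gene with the larger ratio in IRGA 428: it had 21.8, 44.4 and 33.7 CPM in the IRGA 428 controls, 63.9 and 121 CPM in treated 2 and 3, and 44.7 CPM in treated 1. In BR-IRGA 409 it had 26.0, 45.3 and 30.5 CPM at 29 °C and 97.2, 46.2 and 63.6 CPM at 38 °C, so that the values of the cultivars overlapped at both temperatures. MH10g0113000 had 16.8, 75.1 and 68.7 CPM in the IRGA 428 controls and 105, 97.4 and 112 CPM in its treated libraries, without overlap.

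The genes were spread over the genome, if the pair of digits that follows MH in each ID gives the chromosome, a reading that no file states. Each of 12 numbers held between 11 genes (number 10) and 47 genes (number 2). As a share of the genes with a BR-IRGA 409 control mean of 20 CPM or more, they ranged from 2.18% on number 8 to 4.70% on number 11. In the order of the IDs, 8 pairs of the set stood next to each other, so that 16 of the 291 genes had a neighbour in the set, and MH05g0369800 and MH04g0111900 were among these. Reads with several alignments were not counted for any gene, and the values of neighbouring genes that are near-identical copies are uncertain for that reason.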

How the data were processed

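Each of the 12 libraries has its own deposited file of raw read counts by gene ID. The tools that the submitters' processing notes list for the authors are HTSeq 0.6.1, HISAT2 2.05 and Trimmomatic 0.33. How they were set, which genome build was read and whether strand was used is not given in the sources used here, so reads of overlapping antisense genes may be mixed. The 5 closing lines of each file name no gene and entered neither the library sizes nor any test. Among them, reads outside genes made up 6.04% to 10.3% of a library. Groups and replicate numbers came from the sample titles.

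The genes were chosen with Python 3.11.15 and pandas 2.3.3. Differences were tested with edgeR 4.0.16 in R 4.3.3 on all 22321 genes kept by filterByExpr, with trimmed mean of M-values scaling, 1 mean per group over all 12 libraries (8 residual degrees of freedom), the robust quasi-likelihood test and Benjamini-Hochberg adjustment over all genes. A gene was called at an adjusted p below 0.05. Log2 fold changes come from this model, and the SE is the log2 fold change divided by the square root of the F statistic. CPM values are on plain library totals. p-values measure the spread between libraries of 2 plants each. The script was tested on simulated data.

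IDs named per comparison are at most 2 higher and 2 lower: the highest treated mean and the largest ratio for BR-IRGA 409, and the highest and lowest log2 fold changes elsewhere, called genes first. Exceptions are stated. The gene set and the lists were chosen with earlier results of these data known. The alternatives tried were other scalings, filters, thresholds and fits, thinning, leaving out libraries, the replicate number as a block, and the tests of DESeq2 1.42.0 and of limma 3.58.1 with voom weights. Same-numbered libraries deviated together between the control groups (r = 0.237, 0.301 and 0.164 for numbers 1, 2 and 3), a pairing seen in the data and not in the labels, and not for every number between any other groups compared.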

Additional observations from a re-analysis of the deposited data

How the results depend on the processing

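The rule found 258 to 343 genes when a BR-IRGA 409 library was left out and 292 to 344 under the other scalings, thinning or with overlap allowed, but 440 and 124 with a control mean of 10 and 50 CPM, and 593 and 138 with a ratio of 1.5 and 3. Applied to IRGA 428 (10 genes), it found 16 with trimmed mean or relative log expression scaling, 96 with overlap allowed, and 1 to 193 with a library left out. Genes of the set called for heat in BR-IRGA 409 (165) were 265 with DESeq2, 93 with limma-voom, 62 without the filter, 290 with only the groups compared and 6 at an adjusted p below 0.01, where 13.04%, 9.78%, 4.53%, 22.3% and 0.228% of all genes were called in either direction, and 0 to 277 with a library left out. For heat in IRGA 428 (0) they were 0 to 15 with a library left out and 16 without control 3 and treated 1. Genes without overlap there in either direction (32) were 49 with relative log expression scaling, 240 without control 3 and treated 1, and 32 to 253 with a library left out. A lack of overlap is easier to reach with fewer libraries. The share over all genes was not computed for the counts of 49 and 240, so they are not read as a result about the set. Calls between cultivars at 29 °C (3) were 6 without IRGA 428 control 3 and treated 1, all higher in BR-IRGA 409. Of all 22892 genes in that fit 4.74% were called in either direction, and 607 genes were called higher. With a library left out the calls in the set at 29 °C were 3 to 12. At 38 °C (16) they were 34 with DESeq2, 46 with only the groups compared and 5 at an adjusted p below 0.01. Without IRGA 428 control 3 and treated 1 they were 7. Of all genes 7.07%, 7.51%, 3.78% and 7.78% were called in the same order, in either direction. The calls in the set were all higher in BR-IRGA 409. Among all genes, called higher there were 1248 of 35195 with DESeq2 and 873 of 22960 with only the groups compared. Without IRGA 428 control 3 and treated 1 they were 787 of 22892. With a library left out the set had 5 to 47 calls at 38 °C. For the interaction (0) the set had 0 to 1 calls with a library left out.

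With the replicate number as a block in the 12-library fit, the calls were 203, 0, 3, 14 and 0 for heat in BR-IRGA 409, heat in IRGA 428, cultivars at 29 °C, at 38 °C and the interaction, against 11.8%, 0%, 3.53%, 5.83% and 0% of all genes. These shares count both directions, whereas all calls in the set were in the higher direction. Called higher were 1429, 365 and 603 of 22321 genes for heat in BR-IRGA 409, cultivars at 29 °C and cultivars at 38 °C. In a block fit of the 29 °C libraries alone, chosen after seeing the data, 2 genes of the set were called, all higher. Of all 20826 genes in that fit 370 (1.78%) were called, 157 of them higher. MH04g0111900 was not called there, nor in those libraries without the block. No other call on a named gene between the cultivars at 29 °C changed with the block.

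Signs turned for genes that were not called in the fit of all 12 libraries. Without IRGA 428 control 3 and treated 1, MH02g0172200 had 1.16 at 29 °C and was called, higher in BR-IRGA 409 (edgeR adjusted p = 0.0411). In the same fit it had 0.0029 at 38 °C and −1.15 for the interaction. There MH03g0161100 had 0.54 at 29 °C, and MH10g0113000 had −0.12 for the interaction. The last was −0.089 with limma-voom. With a library left out, the ranges were −0.29 to 0.18 for MH05g0062500 (heat in IRGA 428), −3.31 to 1.16 (29 °C), −0.60 to 0.0032 (38 °C) and −1.57 to 2.90 (interaction) for MH02g0172200, −1.98 to 0.54 for MH03g0161100, −0.48 to 0.33 for MH04g0622600 and −0.15 to 0.56 for MH10g0113000. The cause of these changes was not tested. Of 335 values of named genes under alternatives, 304 kept their direction and their side of the threshold. The call of MH11g0124400 for heat in BR-IRGA 409 was lost in 8 alternatives.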
